A study of Rattus norvegicus with 30 samples.

Results

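The effect of maternal protein restriction on the kidney transcriptome of young rats was compared between postnatal day 10 (D10) and postnatal day 5 (D5). The contrast was (D10-LP minus D10-CN) minus (D5-LP minus D5-CN), computed for each probe set on the log2 scale, so that a value above 0 means that the difference between low-protein (LP) and control (CN) pups was more positive at D10 than at D5. It used 20 of the 30 arrays of the series and 31042 of its 31099 probe sets, all except the 57 control probe sets. All pups were male SHRSP/Izm rats, a hypertensive strain that is prone to stroke, and all groups shared this genetic background. Their dams had eaten 20% casein (CN) or 9% casein (LP) in pregnancy and the same commercial diet once the pups were born. Diets were given to dams, and how many litters the arrays of a group came from is not stated. The D5-CN, D5-LP, D10-CN and D10-LP groups held 5 arrays each.

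In the rat, nephrons are still being formed in the days after birth. Nephron progenitors, which carry transcription factors such as *Six2* and *Eya1*, are used up over this time, while tubules lengthen, capillaries grow in and cell division slows. Protein restriction of the mother is a common model of the fetal origin of hypertension, with fewer nephrons and altered salt handling among its known consequences in rats. The question of the contrast was whether the renal response to the fetal diet was the same before and after this change.

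Each array gave 1 deposited log2 value for a probe set, and a difference of 1.0 is a 2-fold difference. Array means were 6.93 to 6.94 at D5 and 6.86 to 6.87 at D10, and it is not known whether the authors normalized the ages together. For this reason no level is set against one of the other age, and only differences within an age enter the contrast. The methods describe pooled renal RNA of each group, whereas the labels call the arrays biological replicates. P-values thus cover the variation among these arrays alone, and that variation may be technical. Arrays of 1 group had pairwise correlations of 0.983 to 0.998. The typical (median) SD of a probe set among them was 0.12 in D5-CN, 0.10 in D5-LP, 0.13 in D10-CN and 0.12 in D10-LP. With group means removed, 51.9% of the remaining variance lay on 1 component. It was lowest on D10-CN replicate 2 and D10-LP replicate 4 and highest on D10-CN replicate 1 and D10-LP replicate 2. In this order, the proximal tubule marker means were 10.36, 10.41, 11.33 and 11.25. The signal of 3′ minus 5′ control probe sets, a measure of RNA integrity, was 0.73, 0.78, 0.47 and 0.43. What the component reflects was not tested. Markers of the proximal tubule averaged between 10.36 and 11.33 over the 20 arrays and those of the podocyte between 9.06 and 9.62, so markers of the kidney were present on every array. In whole tissue, fewer cells of a type and less RNA in each cell cannot be told apart.

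No probe set was past the threshold in the contrast. With limma, 0 of 31042 probe sets (percent called 0) had an adjusted p under 0.2, the threshold applied throughout, and the smallest adjusted p was 0.998. At an unadjusted p under 0.05 there were 1322 probe sets (4.26%, with 695 or 2.24% above 0 and 627 or 2.02% below 0), and 1552 would be expected by chance. An ordinary linear model without the moderated variance also called 0 probe sets (smallest adjusted p = 0.244) and had 1374 at an unadjusted p under 0.05. The contrast lay above 0 for 48.2% of probe sets and below 0 for 51.8%. It was larger than 0.5 in size for 141 probe sets (0.454%) and larger than 1.0 for 4 (0.0129%). The median standard error of the contrast was 0.113, and its 95% interval reached less than 0.5 to either side for 93.8% of probe sets. The median reach of the interval was 0.236 to either side, and in a typical probe set smaller changes of the diet effect could not be told from 0. The interval is not adjusted for the number of probe sets, and the threshold asked for larger changes. Contrasts of 0.69 (*Hells*) and −0.75 (*Nr1d1*) still had an adjusted p of 0.998 in limma.

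The contrast is made of the diet effects within each age. Within D5, limma called 0 probe sets (percent called 0, smallest adjusted p = 0.243), with 1949 (6.28%) at an unadjusted p under 0.05. This count depended on the fit, with 81 called without D5-LP replicate 5, 18 without D5-CN replicate 1, 38 with all 30 arrays, 157 with array weights, and, with a score of each array as a covariate, 84 (3′ minus 5′ signal, a measure of RNA integrity), 65 (markers of medulla minus cortex) and 375 (markers of endothelium minus proximal tubule, chosen after the data were seen). Within D10 it called 1 (percent called 0.00322), with 1857 (5.98%) at an unadjusted p under 0.05, and 8 with all 30 arrays and 38 with either the 3′ minus 5′ or the endothelium minus proximal tubule covariate. Across the 31042 probe sets, the SD of the diet effect was 0.104 at D5 and 0.102 at D10, and that of the contrast was 0.139. The diet effects of the separate ages had a Pearson r of 0.09 across probe sets, which share arrays and are not independent replicates, and had the same sign in 52.3% of them.

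**Figure D1:**
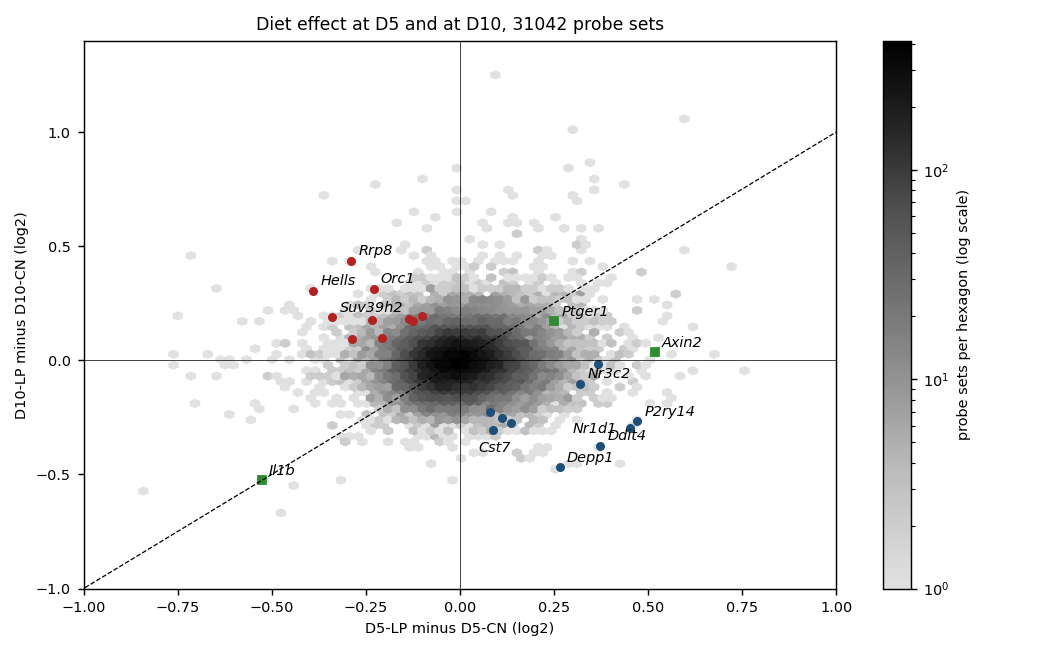
Each hexagon counts probe sets by their LP minus CN difference at D5 (x axis, log2) and at D10 (y axis, log2), and the dashed line marks an equal difference at both ages, where the contrast is 0. Red and blue points are the 20 genes with the smallest unadjusted p above and below 0, which were picked for lying far from that line, and green squares are *Ptger1*, *Il1b* and *Axin2*; no point was past the threshold for the contrast.

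The probe set called within D10 was of *Zfp644*, which encodes a zinc finger protein. Its D10-CN arrays read 5.24, 5.08, 5.51, 5.46 and 5.46 and its D10-LP arrays 5.94, 5.93, 5.93, 5.93 and 6.02, and the groups did not overlap. The D5-CN arrays read 5.22, 5.40, 5.63, 5.84 and 5.31 and the D5-LP arrays 5.59, 5.56, 5.58, 5.66 and 5.60, and these overlapped. *Zfp644* was thus higher in D10-LP than in D10-CN by 0.60 (limma, adjusted p = 0.138), against 0.12 at D5, and its contrast of 0.48 ± 0.14 (SE) had an adjusted p of 0.998. The gene has 3 probe sets, and the D10 difference was 0.02 and 0.07 at the other two. The count of probe sets called within D10 ran from 0 to 7 when 1 array was left out, and it was 7 without D10-CN replicate 5.

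The 10 genes with the smallest unadjusted p above 0 are described by their values. They were ranked by the contrast itself, so their values describe them and add no support, and the adjusted p of each was 0.998 in limma. *Hells*, a helicase of the SNF2 family that is needed for DNA methylation at repeats, read 7.07, 7.25, 7.17, 7.54 and 7.37 on the D5-CN arrays and 6.71, 6.99, 6.73, 6.99 and 7.02 on the D5-LP arrays. At D10, its values were 6.40, 6.18, 6.17, 6.65 and 6.69 in the CN group and 6.74, 6.94, 6.62, 6.50 and 6.83 in the LP group. All D5-LP arrays lay below all D5-CN arrays, whereas at D10 3 LP arrays lay above all CN arrays and the groups overlapped. The LP minus CN difference of *Hells* was −0.39 at D5 and 0.30 at D10, and the contrast was 0.69 ± 0.16 (SE). *Suv39h2*, a histone methyltransferase of heterochromatin, read 5.81, 5.86, 5.78, 6.10 and 5.97 in D5-CN and 5.30, 5.59, 5.62, 5.62 and 5.69 in D5-LP. Its D10 values were 5.16, 5.11, 5.17, 5.51 and 5.21 in D10-CN and 5.37, 5.47, 5.44, 5.28 and 5.53 in D10-LP. The order of the groups was again reversed between ages, with 1 high array, replicate 4, in D10-CN. *Suv39h2* differed by −0.34 at D5 and by 0.19 at D10, a contrast of 0.53 ± 0.12.

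*Orc1*, the large subunit of the complex that marks origins of replication, read 5.69, 5.55, 5.56, 5.94 and 6.01 in D5-CN and 5.47, 5.50, 5.53, 5.53 and 5.57 in D5-LP. At D10 it read 4.37, 3.95, 4.24, 4.37 and 4.49 in D10-CN and 4.57, 4.45, 4.72, 4.49 and 4.76 in D10-LP. The groups overlapped at both ages. The differences of −0.23 and 0.31 gave a contrast of 0.54 ± 0.14. *Rrp8*, a nucleolar methyltransferase of ribosomal RNA, read 7.35, 7.72, 7.46, 7.57 and 7.52 in D5-CN and 7.43, 7.16, 7.23, 7.16 and 7.19 in D5-LP, and 7.20, 6.70, 6.90, 7.49 and 7.54 in D10-CN and 7.68, 7.70, 7.47, 7.56 and 7.60 in D10-LP. Its D10-CN arrays 2 and 3 were below all other D10 arrays, the groups overlapped at both ages, and the contrast was 0.73 ± 0.17 (D5 difference −0.29, D10 difference 0.44). The other 6 genes of this group had contrasts between 0.30 and 0.41. *Dynlrb2*, a dynein light chain, was at 0.41 and *Traf3ip1*, which serves transport in cilia, at 0.31. *Gdap1*, a protein of the outer mitochondrial membrane, was at 0.38, and the transfer RNA methyltransferase subunit *Trmt61a*, the ubiquitin ligase component *Fbxo45* and the deubiquitinase *Otud4* were each at 0.30. *Gdap1* and *Otud4* had mean log2 values of 3.33 and 4.16 over the arrays, which is low on this scale. A brighter probe set of *Otud4*, with a mean of 9.64, had a contrast of 0.09. A dimmer probe set of *Fbxo45* had a contrast of 0.10. At the probe sets ranked, all 10 genes had a negative LP minus CN difference at D5 and a positive one at D10. Ranking by the contrast favours this pattern.

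**Figure D2:**
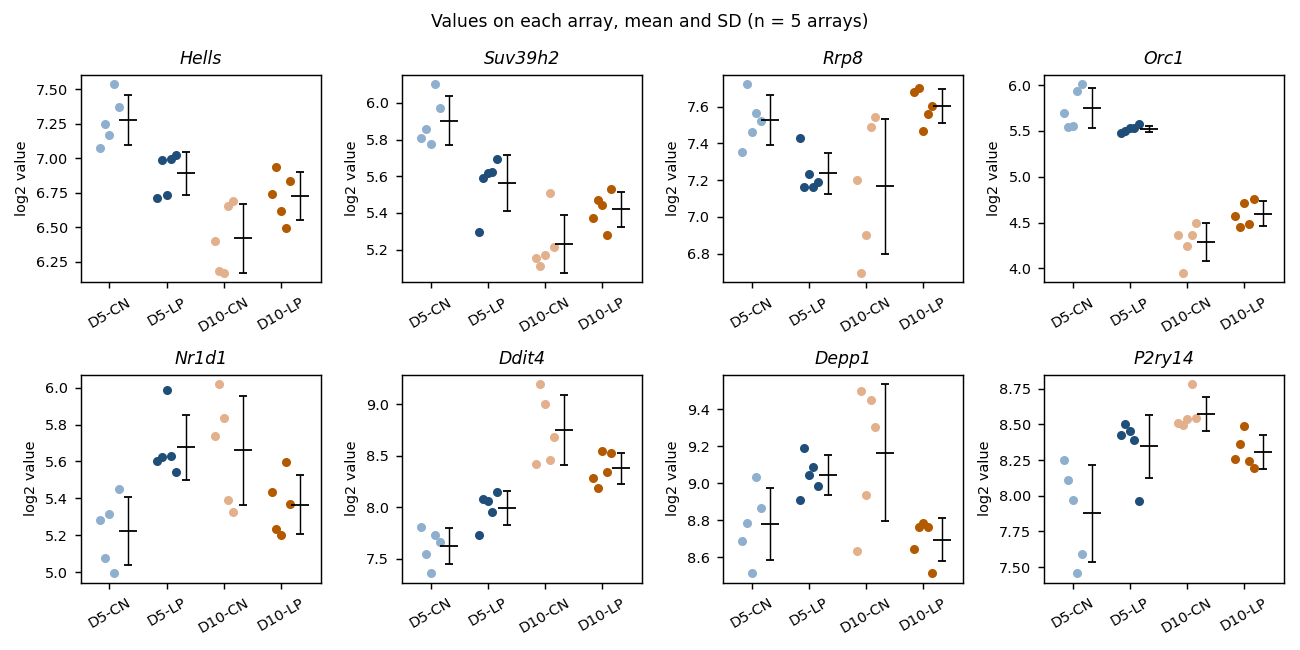
Log2 values of 8 genes on each of the 20 arrays, grouped by age and diet; points are arrays and the bar beside each group is its mean with the SD (n = 5 arrays). In the upper row the D5-LP means lie below and the D10-LP means above those of the CN group, and in the lower row the reverse holds.

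The 10 genes with the smallest unadjusted p below 0 are described in the same way, again with adjusted p = 0.998 in limma. *Nr1d1*, a nuclear receptor that represses clock genes, read 5.29, 5.08, 5.31, 4.99 and 5.45 in D5-CN and 5.60, 5.62, 5.99, 5.63 and 5.54 in D5-LP. At D10 it read 5.74, 6.02, 5.84, 5.39 and 5.33 in D10-CN and 5.44, 5.23, 5.20, 5.60 and 5.37 in D10-LP. The D5 groups did not overlap, and at D10 replicates 1, 2 and 3 of D10-CN were above every D10-LP array. The diet difference of *Nr1d1* was 0.45 at D5 and −0.30 at D10, with a contrast of −0.75 ± 0.18. *Ddit4*, an inhibitor of mTORC1 that is induced by low oxygen and by glucocorticoids, read 7.81, 7.55, 7.36, 7.73 and 7.66 in D5-CN and 7.73, 8.08, 8.06, 7.95 and 8.15 in D5-LP. Its D10 values were 8.42, 9.19, 9.00, 8.45 and 8.69 in D10-CN and 8.29, 8.19, 8.54, 8.34 and 8.52 in D10-LP. The groups overlapped at both ages, and D10-CN replicates 2 and 3 were the highest arrays at D10. Differences of 0.37 at D5 and −0.37 at D10 gave *Ddit4* a contrast of −0.75 ± 0.18.

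*Depp1*, a target of FOXO transcription factors, read 8.69, 8.79, 8.52, 9.04 and 8.87 in D5-CN and 8.91, 9.19, 9.05, 9.09 and 8.99 in D5-LP, and 8.64, 9.50, 8.94, 9.45 and 9.31 in D10-CN and 8.65, 8.76, 8.79, 8.77 and 8.52 in D10-LP. The D10-CN arrays were spread over a wider range than any other group, and the contrast was −0.73 ± 0.19 (D5 0.27, D10 −0.47). *P2ry14*, the receptor for UDP-glucose, read 8.25, 8.11, 7.97, 7.46 and 7.59 in D5-CN and 8.42, 8.50, 8.45, 8.39 and 7.96 in D5-LP, and 8.51, 8.49, 8.53, 8.78 and 8.55 in D10-CN and 8.25, 8.36, 8.49, 8.24 and 8.19 in D10-LP. Its D10 groups touched at 8.49 but did not overlap, and the D5 groups did through D5-LP replicate 5, which lay apart from the other D5-LP arrays. The contrast of *P2ry14* was −0.74 ± 0.18 (D5 0.47, D10 −0.27). *Nr3c2*, the mineralocorticoid receptor, read 8.51, 8.37, 8.10, 8.31 and 8.23 in D5-CN and 8.65, 8.69, 8.66, 8.67 and 8.46 in D5-LP, and 8.70, 8.41, 8.41, 8.45 and 8.47 in D10-CN and 8.41, 8.55, 8.26, 8.36 and 8.34 in D10-LP. The groups overlapped at both ages. The D5 difference of 0.32 made up most of the contrast of −0.42 ± 0.11, and the D10 difference was −0.10. *Pde4b*, a phosphodiesterase of cyclic AMP, was at −0.36, and *Sox17*, a transcription factor of endothelial cells, at −0.38 (D5 0.37, D10 −0.02). A second probe set of *Pde4b* had a contrast of −0.28, and of 2 further *Sox17* probe sets 1 was at −0.41 and the other, at a lower level, at 0.05. The remaining genes, the muscarinic receptor *Chrm4* (−0.41), the oxysterol hydroxylase *Cyp7b1* (−0.31) and the cystatin *Cst7* (−0.40), had mean log2 values of 3.46 to 4.56 over the arrays, which is likewise low.

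For the genes that the study had singled out, the contrast addresses whether the diet effect at D10 was different from that at D5. The study chose *Gnas*, *Kank3*, *Proser2*, *Ptger1*, *Runx1* and *Tbx3* on its D28 samples, which are not part of this contrast. *Ptger1* encodes the EP1 receptor for prostaglandin E2. Its D5-CN arrays read 5.32, 5.17, 4.91, 5.45 and 5.38 and its D5-LP arrays 5.56, 5.43, 5.69, 5.63 and 5.17. The D10-CN arrays read 5.06, 5.11, 5.18, 5.34 and 5.21 and the D10-LP arrays 5.42, 5.24, 5.36, 5.49 and 5.24. The highest array was an LP array at both ages, and the groups overlapped at both. The *Ptger1* difference was 0.25 at D5 and 0.17 at D10, and the contrast was −0.08 with a 95% interval of −0.38 to 0.22 (2-sided exact permutation of the diet labels within each age, p = 0.669; limma, adjusted p = 0.998). At the second *Ptger1* probe set the differences were 0.02 and 0.15, a contrast of 0.13. Neither probe set therefore separated the ages beyond the spread between arrays. By qPCR, a different assay, the study reported significant effects of maternal diet, age and their interaction on *Ptger1* mRNA at D5 and D10. The array contrast at either probe set did not show this interaction.

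*Gnas*, the stimulatory G protein subunit, had differences of 0.07 at D5 and 0.05 at D10 and a contrast of −0.03 (95% interval −0.23 to 0.18). Other *Gnas* probe sets, at lower levels, had contrasts of −0.46 and −0.28, with standard errors of 0.40 and 0.37. The contrast was −0.03 for *Kank3* (−0.37 to 0.30), −0.04 for the transcription factor *Tbx3* (−0.55 to 0.47) and −0.11 for the transcription factor *Runx1* (−0.46 to 0.24). *Proser2* read 8.05, 7.78, 7.68, 8.04 and 7.93 in D5-CN and 8.14, 8.18, 8.41, 8.26 and 8.20 in D5-LP, which did not overlap. At D10 it read 8.02, 8.96, 8.72, 8.38 and 8.11 in D10-CN and 8.35, 8.16, 8.40, 8.52 and 8.39 in D10-LP, which overlapped. The *Proser2* contrast was −0.42 (−0.82 to −0.02; 2-sided exact permutation test, p = 0.0653) and was 0.01 at its other probe set. *Il1b*, an inflammatory cytokine, read 6.14, 6.82, 6.72, 5.99 and 6.01 in D5-CN and 5.82, 5.67, 5.69, 5.86 and 6.0 in D5-LP, and 6.02, 6.65, 6.75, 6.03 and 6.0 in D10-CN and 5.86, 5.74, 5.51, 5.89 and 5.82 in D10-LP. At both ages CN replicates 2 and 3 were the high arrays, and the groups overlapped at D5 but not at D10. Its difference was −0.53 at either age, and the contrast of 0.00 had an interval of −0.50 to 0.50.

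*Hmox1*, the inducible heme oxygenase, read 8.45, 7.90, 7.99, 7.62 and 8.01 in D5-CN and 8.66, 8.25, 8.05, 8.97 and 8.03 in D5-LP, and 8.48, 7.91, 7.94, 7.42 and 7.67 in D10-CN and 8.00, 7.68, 7.75, 7.55 and 7.47 in D10-LP. The groups overlapped at both ages, the difference was 0.40 at D5 and −0.20 at D10, and the contrast was −0.59 (−1.17 to −0.02; 2-sided exact permutation test, p = 0.0613). *Slc14a2*, the urea transporter of the collecting duct, was higher in the LP mean at both ages (0.33 and 0.53), with a contrast of 0.19 (−0.45 to 0.84) and of −0.14 to 0.40 at its 4 other probe sets. *Gucy1b1*, a subunit of the nitric oxide receptor, was lower in the LP mean at both ages (−0.45 and −0.20; contrast 0.24). *Gdnf*, the growth factor that drives ureteric branching, had a contrast of −0.21 (−0.41 to −0.01). *Axin2*, a target and inhibitor of canonical Wnt signalling, and the matrix protein *Col15a1* were added because a fit of the same arrays in an earlier analysis had called them at D5. *Axin2* read 7.17, 7.05, 7.05, 7.06 and 6.94 in D5-CN and 7.49, 7.55, 7.76, 7.61 and 7.46 in D5-LP, with no overlap, and 7.30, 8.49, 8.39, 7.84 and 7.34 in D10-CN and 7.62, 7.40, 7.75, 8.55 and 8.22 in D10-LP, with overlapping ranges. The *Axin2* contrast of −0.48 (−1.12 to 0.15; 2-sided exact permutation test, p = 0.185) combined a D5 difference of 0.52 with a D10 difference of 0.04 and a wide D10 spread. For *Col15a1* the values were 0.37 at D5, 0.05 at D10 and −0.32 for the contrast. *Corin*, also named by the study, was not measured by a probe set with 1 gene symbol. Of the 11 genes the study named, 8 were below 0 and their median was −0.04.

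**Figure D3:**
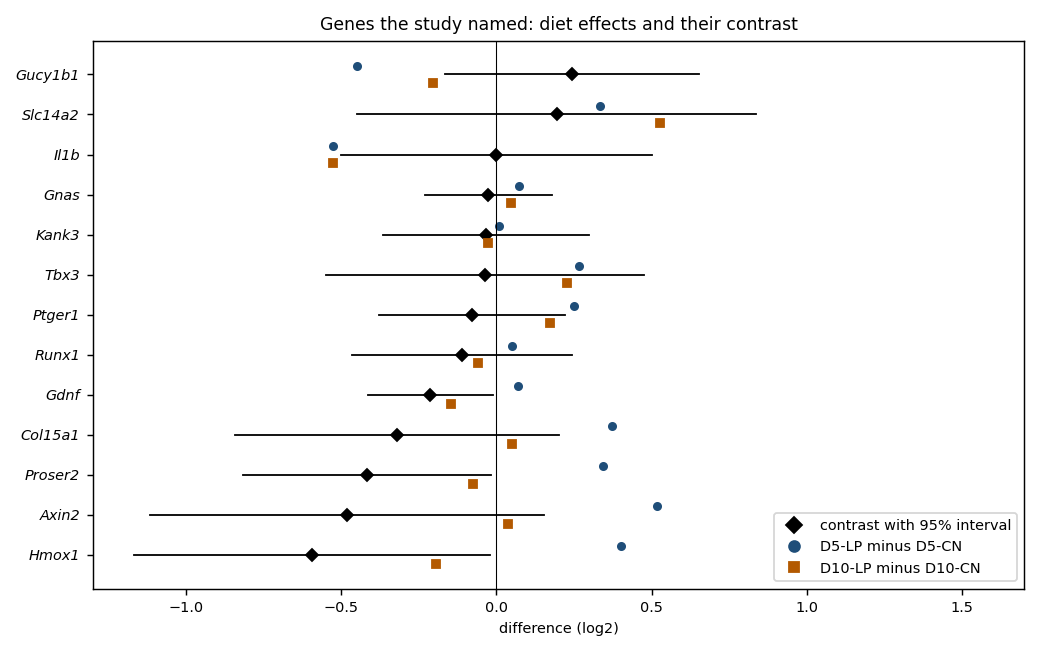
For 11 genes the study named and for *Axin2* and *Col15a1*, diamonds show the contrast with its 95% interval from limma, circles the LP minus CN difference at D5 and squares that at D10, all on the log2 scale. The interval of *Ptger1* runs from −0.38 to 0.22 around a contrast of −0.08.

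Gene lists were described by the number of measured members on each side of 0 and by their median, beside 51.8% of the 14217 genes above 0 and a median contrast of 0.01 over them. None of the 36 lists had a member past the threshold, and a member's unadjusted p was under 0.05 for 4.47% of all genes. Members of a list share arrays and often move together within a group, so these counts are not a test. The lists of cell proliferation, endothelium, extracellular matrix, podocyte and macrophage genes had nearly all members on 1 side of 0.

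**Figure D4:**
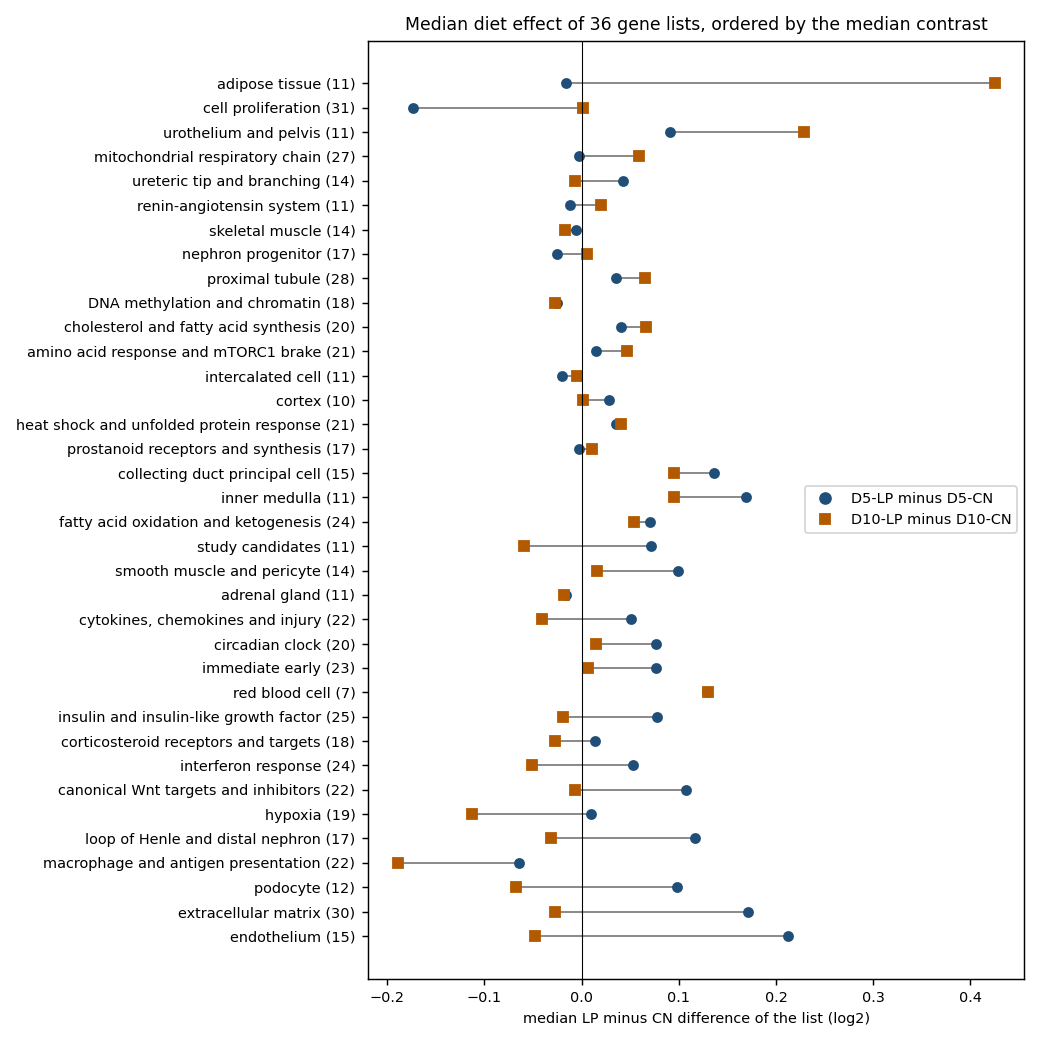
Median LP minus CN difference of each of 36 gene lists at D5 (circles) and at D10 (squares) on the log2 scale, ordered by the median contrast, with the number of measured genes in parentheses. Cell proliferation genes lie at −0.17 at D5 and 0.00 at D10, endothelium genes at 0.21 and −0.05, and adipose tissue genes at −0.02 and 0.42.

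Genes of cell proliferation lay above 0 in 30 of 31 cases, with a median contrast of 0.16. Their median LP minus CN difference was −0.17 at D5 and 0.00 at D10. The mean of the list was 9.28, 9.40, 9.47, 9.67 and 9.60 on the D5-CN arrays and 9.25, 9.29, 9.25, 9.36 and 9.50 on the D5-LP arrays. At D10 it was 8.69, 8.58, 8.69, 8.91 and 8.85 in D10-CN and 8.64, 8.84, 8.83, 8.66 and 8.78 in D10-LP. The groups overlapped at both ages. Cyclin A2 (*Ccna2*), which drives the S phase, read 9.64, 9.77, 9.88, 10.23 and 10.04 in D5-CN and 9.43, 9.72, 9.57, 9.76 and 9.67 in D5-LP, and 8.80, 8.56, 8.65, 9.03 and 9.13 in D10-CN and 8.83, 9.02, 9.00, 8.70 and 9.02 in D10-LP. The groups overlapped at both ages. Its contrast was 0.36 ± 0.16, the largest of the list, and *Ccna2* was the 1 member with an unadjusted p under 0.05. The spindle checkpoint kinase *Bub1* was at 0.33 and cyclin E2 (*Ccne2*) at 0.18, while the proliferation antigen *Mki67* was at 0.06 and thymidine kinase (*Tk1*), the member below 0, at −0.01. Without D10-CN replicates 2 and 3, 28 of the members were above 0 and the median was 0.08, and without those and D10-LP replicate 4, 29 were above 0 with a median of 0.10.

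DNA methylation and chromatin regulators, of which *Hells* and *Suv39h2* were not members, were divided, with 10 of 18 above 0 and a median of 0.02. The 3 members with an unadjusted p under 0.05 were all above 0. Among them were *Eed* (0.22) and *Suz12* (0.28), subunits of the polycomb complex that methylates histone H3, and *Tet1* (0.24), which oxidizes methylcytosine. The catalytic subunit *Ezh2* was at 0.22 and *Uhrf1*, which recruits the maintenance methyltransferase, at 0.30. The methyltransferases themselves were at 0.05 (*Dnmt1*), −0.20 (*Dnmt3a*) and 0.07 (*Dnmt3b*).

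Endothelial markers lay below 0 in 15 of 15 cases, with a median difference of 0.21 at D5, −0.05 at D10 and a median contrast of −0.26. The list mean was 8.64, 8.39, 8.27, 8.53 and 8.61 in D5-CN and 8.68, 8.67, 8.75, 8.57 and 8.69 in D5-LP, and 8.77, 9.46, 9.39, 9.13 and 8.89 in D10-CN and 8.83, 8.82, 9.17, 9.28 and 9.11 in D10-LP. D10-CN replicates 2 and 3 stood above all other D10 arrays, and the groups overlapped at both ages. *Flt1*, a receptor for vascular endothelial growth factor, read 7.45, 6.92, 6.65, 7.29 and 7.33 in D5-CN and 7.29, 7.36, 7.47, 7.34 and 7.37 in D5-LP, and 7.48, 8.57, 8.40, 7.89 and 7.80 in D10-CN and 7.59, 7.50, 7.84, 7.99 and 8.01 in D10-LP. The same 2 D10-CN arrays were the highest at D10, the groups overlapped at both ages, and the contrast was −0.48 ± 0.25 (−0.21 and −0.26 at the other probe sets). The tight junction protein *Cldn5* was at −0.26 and *Egfl7*, secreted by endothelial cells, at −0.28. Without D10-CN replicates 2 and 3, 11 of the 15 markers were below 0 and the median was −0.05. With D10-LP replicate 4 also left out, the next highest array at D10, 14 were below 0 with a median of −0.13.

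Extracellular matrix genes were highest at D10 on the same arrays as the endothelial markers, with list means of 10.44, 11.18, 11.13, 10.84 and 10.52 in D10-CN and 10.63, 10.65, 10.87, 11.08 and 10.85 in D10-LP. Of 30, 28 were below 0, and the median was 0.17 at D5, −0.03 at D10 and −0.21 for the contrast. *Ccn2*, a matrix-associated growth factor, was at −0.44 and *Sparc*, a collagen-binding protein, at −0.30. The collagen-binding proteoglycan *Dcn* was at −0.17, and the fibrillar collagens *Col1a1* and *Col1a2* were each at −0.27. The 2 members above 0 were the proteoglycan *Lum* (0.58) and *Postn* (0.47). Without D10-CN replicates 2 and 3 the list turned, with 19 above 0 and a median of 0.04, and without D10-LP replicate 4 as well, 19 of 30 were below 0 with a median of −0.04. Podocyte markers were below 0 in 12 of 12 cases, with a median of −0.18, and 10 were below 0 without D10-CN replicates 2 and 3 (median −0.08). Among them, the actin crosslinker *Actn4* was at −0.28, the slit diaphragm protein *Nphs1* at −0.33 and the intermediate filament *Nes* at −0.23. Smooth muscle and pericyte markers had 11 of 14 below 0 with a median of −0.04, and 12 above 0 without D10-CN replicates 2 and 3. The pericyte regulator *Rgs5* was at −0.26 and the actin-binding protein *Tagln* at −0.23. Leaving these arrays out was chosen after the data were seen. D10-CN replicates 2 and 3 had the highest endothelium and extracellular matrix means at D10, so a rise of those contrasts without them follows from the choice. Within D10-CN they also had the highest podocyte, immediate early, interferon response, cytokine and nephron progenitor means, and the same limit holds for those lists. Their urothelium and intercalated cell means were the lowest of D10-CN, so a fall of those contrasts without them likewise follows from the choice. A fit with the endothelium minus proximal tubule score of each array as a covariate was likewise chosen after the data were seen. With this covariate, endothelial markers were below 0 in 15 of 15 cases (median −0.15), extracellular matrix genes in 19 of 30 (median −0.09), podocyte markers in 10 of 12 (median −0.08) and smooth muscle and pericyte markers in 7 of 14 (median 0.00). The score is built from the endothelium list itself, so its fit is no independent check of that list. A measure of RNA integrity, the signal of 3′ minus that of 5′ control probe sets, is larger in degraded RNA and was 0.47, 0.73, 0.67, 0.47 and 0.52 in D10-CN and 0.43, 0.43, 0.62, 0.78 and 0.67 in D10-LP. It was highest on D10-LP replicate 4 and then on D10-CN replicate 2, which were among the arrays with high endothelium and extracellular matrix means. With this measure as a covariate the median contrast was −0.28 for the endothelium list, −0.22 for the extracellular matrix list and −0.19 for the podocyte list, and limma called 0 probe sets, with 2875 at an unadjusted p under 0.05.

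**Figure D5:**
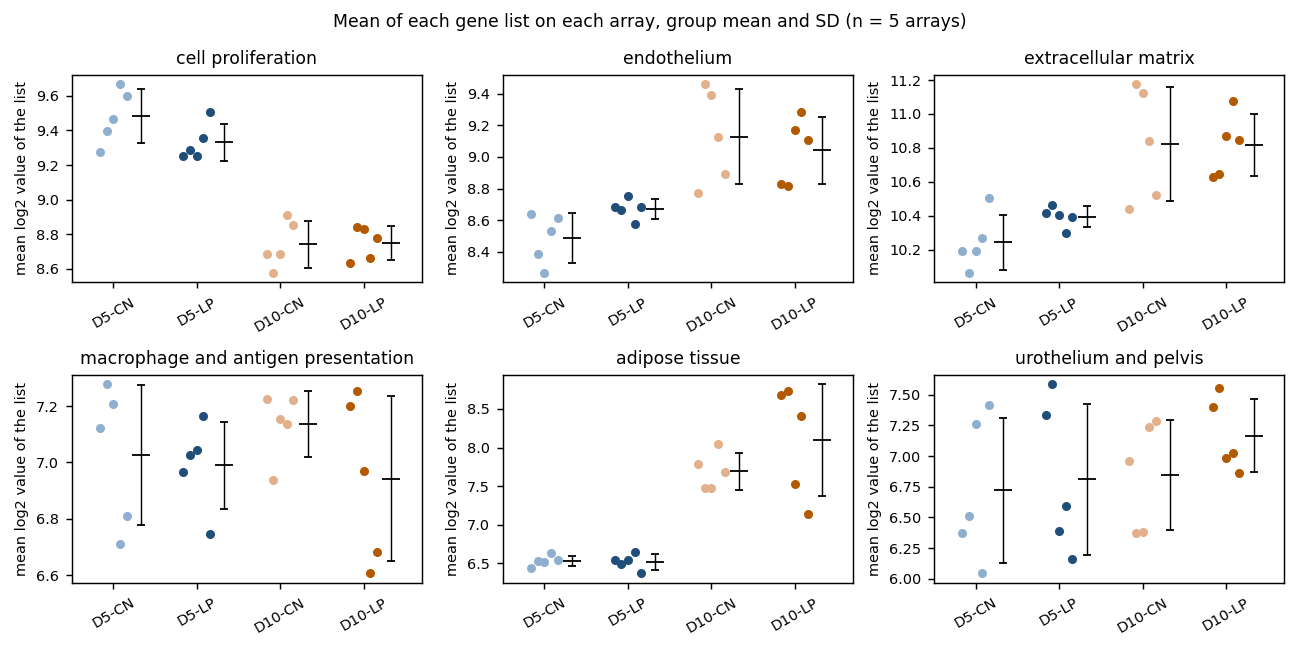
Mean log2 value of 6 gene lists on each array, with the group mean and SD (n = 5 arrays). The endothelium and extracellular matrix means are highest on D10-CN replicates 2 and 3, the adipose tissue mean is highest on D10-LP replicates 1, 2 and 4, and the urothelium mean is spread over all groups.

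Nephron progenitor genes were on both sides of 0 (10 above and 7 below of 17, median 0.03). *Eya1*, which maintains the progenitors, read 7.24, 7.39, 7.37, 7.85 and 7.67 in D5-CN and 7.19, 7.03, 7.03, 7.00 and 7.34 in D5-LP, and 6.27, 6.15, 6.22, 6.16 and 6.28 in D10-CN and 6.16, 6.17, 6.39, 6.21 and 6.27 in D10-LP. The LP mean was the lower one at D5, the groups overlapped at both ages, and the contrast of 0.41 ± 0.13 lay mostly in the D5 difference of −0.39. *Fgf8*, a growth factor of the forming nephron, was at 0.35 (D5 −0.33, D10 0.03). Its D10 means of 3.29 (CN) and 3.32 (LP) are low on this scale, so a diet difference at D10 could be missed. *Crym*, a thyroid hormone-binding protein, had the opposite pattern (−0.27, with 0.20 at D5). *Wt1*, *Pax2*, *Sall1* and *Lhx1*, transcription factors of the early nephron, were at −0.02, −0.23, 0.21 and 0.23. Ureteric tip and branching genes had 8 of 14 above 0 (median 0.05). *Wnt11*, a ligand of the ureteric tip, read 5.99, 5.96, 5.80, 5.82 and 6.08 in D5-CN and 6.32, 6.31, 6.70, 6.37 and 6.14 in D5-LP, and 5.89, 6.01, 5.78, 5.83 and 6.17 in D10-CN and 6.06, 6.03, 5.95, 6.06 and 5.83 in D10-LP. Its D5 groups did not overlap and its D10 groups did, and the contrast was −0.38 ± 0.13, against 0.03 at the second probe set. The GDNF receptor *Gfra1* was at 0.23 and the guidance receptor *Robo2* at −0.19. Canonical Wnt targets and inhibitors had 14 of 22 below 0 (median −0.10), with *Dkk3* at −0.42 and *Sfrp4*, a secreted Wnt inhibitor, at 0.39. The second *Sfrp4* probe set was at 0.02, and dimmer *Dkk3* probe sets were at −0.15, 0.06 and −0.10.

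Along the tubule, genes of the loop of Henle and distal nephron lay below 0 in 15 of 17 cases, with a median of 0.12 at D5, −0.03 at D10 and −0.15 for the contrast. *Casr*, the calcium-sensing receptor, read 9.34, 9.15, 9.07, 9.19 and 9.21 in D5-CN and 9.43, 9.45, 9.59, 9.35 and 9.45 in D5-LP, and 9.69, 10.16, 10.08, 10.20 and 9.98 in D10-CN and 9.77, 9.78, 10.07, 9.95 and 9.95 in D10-LP. The D5-LP arrays were above all D5-CN arrays, the D10 groups overlapped, and the contrast was −0.38 ± 0.12. The kinase *Wnk1*, which regulates salt cotransport, was at −0.26 (−0.43 to 0.04 at its 4 other probe sets) and the sodium-calcium exchanger *Slc8a1* at −0.25. Other members were the thiazide-sensitive cotransporter *Slc12a3* at −0.42, the potassium channel *Kcnj1* at −0.23 and the loop cotransporter *Slc12a1* at −0.03. The count was also 15 without D10-CN replicates 2 and 3, and the median was then −0.27. Those arrays had the lowest means of this list in D10-CN (9.69 and 9.73), so a fall without them follows from the choice. Without D10-LP replicates 1, 2 and 4, 12 were below 0 and the median was −0.10. Proximal tubule genes had 17 of 28 above 0 and a median of 0.03. The gluconeogenic enzyme *Pck1* was at −0.19, the peptidase *Mme* at 0.23 and the amino acid transporter *Slc7a8* at −0.08. This list turned without D10-CN replicates 2 and 3, when 28 of 28 members were below 0 (median −0.16). Those arrays had the lowest proximal tubule means of D10-CN (10.36 and 10.59), so a fall without them follows from the choice. The cortex list had 5 of 10 above 0 (median 0.00), with the androgen-regulated protein *Kap* at 0.15. This list moved too, with 0 of 10 above 0 without those 2 arrays (median −0.17), 2 without D10-LP replicates 1, 2 and 4 (median −0.17) and 0 with the endothelium minus proximal tubule covariate (median −0.21).

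Collecting duct principal cell genes (7 of 15 above 0, median 0.00) and inner medulla genes (5 of 11, median −0.02) had medians near 0. Their median LP minus CN differences were 0.14 and 0.09 for principal cells and 0.17 and 0.09 for the inner medulla, at D5 and D10. The water channel *Aqp3* was at 0.20, the glucocorticoid-inactivating enzyme *Hsd11b2* at −0.15, the ubiquitin ligase *Nedd4l* at −0.11 and the water channel *Aqp4* at −0.19. The medulla minus cortex score, which moves with the share of medulla in a sample, had a contrast of 0.04. Intercalated cell genes were divided (6 of 11 above 0). The anion exchanger *Slc4a1*, also a red cell gene, was at −0.48, whereas *Foxi1*, the transcription factor of these cells, was at 0.45 and the proton pump subunit *Atp6v1b1* at −0.14. Genes of the renin-angiotensin system had a median of 0.04 (7 of 11 above 0), with angiotensinogen (*Agt*) at 0.23 and the angiotensin receptor *Agtr1a* at −0.16. Prostanoid receptors and synthesis genes had a median of 0.00 (8 of 17 above 0). The cyclooxygenase *Ptgs1* was at 0.24, with 0.20 at D5 and 0.44 at D10, the prostaglandin E synthase *Ptges3* at 0.10 and the EP3 receptor *Ptger3* at −0.26.

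Circadian clock genes were below 0 in 12 of 20 cases with a median of −0.06. Beside *Nr1d1*, its paralogue *Nr1d2* was at −0.24 and the negative limb of the clock at −0.41 (*Per1*), −0.14 (*Per2*), −0.34 (*Per3*) and −0.13 (*Cry2*). The activators *Clock* and *Bmal1* were at 0.09 and 0.11, the repressor *Nfil3* at −0.19 and the output factor *Dbp* at 0.02. *Per1*, which glucocorticoids also induce, read 8.26, 7.96, 7.82, 7.91 and 7.93 in D5-CN and 8.04, 8.24, 8.22, 8.35 and 8.37 in D5-LP, and 7.82, 8.27, 8.11, 7.82 and 7.83 in D10-CN and 7.69, 7.74, 7.93, 7.98 and 7.78 in D10-LP. Its groups overlapped at both ages and its contrast was −0.41 ± 0.14. Corticosteroid receptors and targets were below 0 in 10 of 18 cases (median −0.08), with *Cebpd*, a transcription factor induced by glucocorticoids, at −0.46. Immediate early genes, which respond to stimuli within minutes, were below 0 in 15 of 23 cases (median −0.07). *Jund* was at −0.28, *Nr4a2* at −0.26 and *Ier3* at −0.19, while *Fos* was at −0.07 and *Egr1* at 0.06. Of the 23, 16 were above 0 without D10-CN replicates 2 and 3.

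Heat shock and unfolded protein response genes had 10 of 21 above 0 and a median of 0.00. The small chaperone *Cryab* was at −0.39, with a D5 difference of 0.43. The cochaperones *Dnajb1* and *Dnaja1*, which bring substrates to the chaperone HSP70, were at 0.19 (−0.02 to 0.39) and 0.18 (−0.03 to 0.40). Their promoters are shown because both hold the letters GAANNTTC, part of the heat shock element bound by the heat shock factor, and have like contrasts. The windows are those of RefSeq on the build GRCr8, 300 bases around the gene start in the direction of the gene, with capitals for GAANNTTC and for AGGTCA, a nuclear receptor half-site, on either strand.
Dnajb1, chr19:41431092-41431391, minus strand: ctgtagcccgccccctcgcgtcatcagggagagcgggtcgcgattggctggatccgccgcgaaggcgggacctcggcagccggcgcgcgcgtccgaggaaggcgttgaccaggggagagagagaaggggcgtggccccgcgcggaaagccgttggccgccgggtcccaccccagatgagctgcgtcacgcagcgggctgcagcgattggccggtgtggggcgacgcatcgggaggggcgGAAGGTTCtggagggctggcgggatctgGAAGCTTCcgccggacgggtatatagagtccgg
Dnaja1, chr5:60638154-60638453, plus strand: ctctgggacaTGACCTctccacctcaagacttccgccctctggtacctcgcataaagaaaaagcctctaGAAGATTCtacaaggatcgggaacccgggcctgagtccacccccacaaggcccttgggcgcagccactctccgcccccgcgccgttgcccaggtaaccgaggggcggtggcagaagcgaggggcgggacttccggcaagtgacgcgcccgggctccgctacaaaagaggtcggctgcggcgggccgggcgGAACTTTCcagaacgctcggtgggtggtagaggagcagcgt
GAANNTTC occurred 2 times in each window, and 8.59% of 33469 RefSeq promoter windows of this length held it. AGGTCA occurred 1 time in *Dnaja1* (as TGACCT) and in 16.2% of all windows. Of the other named clock, immediate early and heat shock genes with a window, *Nr4a2* held GAANNTTC 1 time and *Jund* held the cyclic AMP response element TGACGTCA 1 time (1.83% of all windows), while *Per1* and *Nfil3* held none of these letters nor the E-box CACGTG (6.42% of all windows). *Nr1d1*, *Ier3* and *Cryab* had no entry. A match of letters is a description of the sequence only.

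Nutrient-related lists had small medians with all arrays in the fit. Amino acid response and mTORC1 brake genes were above 0 in 15 of 21 cases (median 0.02), with *Ddit4* at −0.75 as its lowest member and *Psph*, an enzyme of serine synthesis, at 0.24 as its highest. Asparagine synthetase (*Asns*), a target of the amino acid response, was at 0.22 (D5 0.09, D10 0.31) and the lipoprotein receptor *Vldlr* at −0.15. Insulin and insulin-like growth factor genes were below 0 in 20 of 25 cases (median −0.08). When 1 array was left out, this median ran from −0.14 (without D10-LP replicate 4) to −0.05 (without D5-CN replicate 3). *Igfbp1*, a binding protein that rises with fasting, read 9.34, 9.18, 8.77, 8.99 and 8.98 in D5-CN and 9.22, 9.09, 8.90, 9.11 and 9.08 in D5-LP, and 9.40, 9.32, 9.34, 9.41 and 9.29 in D10-CN and 9.21, 9.14, 8.98, 8.88 and 8.52 in D10-LP. Here the difference lay at D10, where the groups did not overlap (−0.41, against 0.03 at D5), and the contrast was −0.43 ± 0.16. The binding protein *Igfbp3* was at −0.31 and the receptor *Igf2r* at −0.22. Cholesterol and fatty acid synthesis genes were above 0 in 13 of 20 cases (median 0.02), with the desaturase *Scd* at 0.43, the elongase *Elovl6* at 0.17 and *Insig1*, a sterol sensor, at −0.19. Fatty acid oxidation and ketogenesis genes were divided (11 of 24 above 0, median −0.02) with all arrays. Of the 24, 23 were below 0 without D10-CN replicates 2 and 3 (median −0.14), 24 without D10-LP replicates 1, 2 and 4 (median −0.14), 21 with the endothelium minus proximal tubule covariate (median −0.13) and 24 with the mean of the adipose tissue list as a covariate (median −0.12). These alternatives were chosen after the data were seen. D10-CN replicates 2 and 3 had the lowest means of this list in D10-CN (9.53 and 9.66). D10-LP replicates 1 and 2 had the highest in D10-LP (10.04 and 10.08). A fall of the contrast without either set of arrays thus follows from the choice. The pyruvate dehydrogenase kinase *Pdk4* was at −0.60 (−1.37 to 0.17), the coactivator *Ppargc1a* at −0.18 and the uncoupling protein *Ucp2* at −0.22. Genes of the mitochondrial respiratory chain were above 0 in 23 of 27 cases, with a median of 0.06 and a range of −0.09 to 0.13, and 27 of 27 were below 0 without D10-CN replicates 2 and 3. Those arrays had the lowest respiratory chain means at D10 (11.57 and 11.68), so this fall also follows from the choice. *Cox6c* and *Cox6a1* were each at 0.12 and *Cox5a* at −0.09.

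Genes of macrophages and antigen presentation lay below 0 in 22 of 22 cases, with a median of −0.06 at D5, −0.19 at D10 and −0.15 for the contrast. The list mean was 7.12, 7.28, 7.21, 6.71 and 6.81 in D5-CN and 6.97, 7.03, 7.04, 7.16 and 6.75 in D5-LP, and 7.22, 6.94, 7.16, 7.14 and 7.22 in D10-CN and 7.20, 7.25, 6.97, 6.61 and 6.68 in D10-LP. D10-LP replicates 4 and 5 were the lowest arrays at D10 and the groups overlapped at both ages. All 22 macrophage members were below 0 also without D10-CN replicates 2 and 3 (median −0.20), and 21 were without D10-LP replicates 1, 2 and 4 (median −0.28). Without D10-CN replicates 2 and 3 and D10-LP replicate 4, 20 were below 0 (median −0.09). Among fits that left out 1 array, the macrophage median was −0.08 without D5-CN replicate 4 and −0.23 without D10-LP replicate 2. The invariant chain *Cd74* was at −0.31, the Fc receptor subunit *Fcer1g* at −0.22, the lysosomal protein *Laptm5* at −0.16 and the mannose receptor *Mrc1* at −0.35. Interferon response genes were below 0 in 19 of 24 cases (median −0.08), with the antiviral protein *Rsad2* at −0.36 (D5 0.47, D10 0.10), *Ifit2* at −0.33 and *Gbp2* at −0.32. Leaving out D10-CN replicates 2 and 3 gave 13 of 24 interferon response genes below 0 and a median of −0.02. Cytokine, chemokine and injury genes were below 0 in 13 of 22 cases (median −0.05) and spread from *Hmox1* at −0.59 to the chemokine *Ccl2* at 0.61. The unadjusted p was under 0.05 for 5 of the 22. The chemokine *Cxcl2* was at 0.29, the inhibitor of NF-kappaB *Nfkbia* at −0.28 and the injury marker *Havcr1* at −0.14. Hypoxia genes were below 0 in 15 of 19 cases, with a median of 0.01 at D5, −0.11 at D10 and −0.14 for the contrast. The vasodilator peptide *Adm* was at −0.38, the collagen hydroxylase *P4ha1* at −0.32 and the hypoxia-inducible factor *Epas1* at −0.32, whereas the glycolytic genes *Ldha* and *Hk2* were at 0.00 and 0.02. The median of this list was −0.06 without D10-CN replicates 2 and 3 and −0.06 without D10-LP replicate 4.

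Of the 36 lists, that of adipose tissue, which surrounds the kidney, had the largest median. Adipose tissue genes were above 0 in 10 of 11 cases, with a median of −0.02 at D5, 0.42 at D10 and 0.44 for the contrast. The list mean was 7.78, 7.48, 7.48, 8.04 and 7.68 on the D10-CN arrays and 8.68, 8.73, 7.53, 8.41 and 7.14 on the D10-LP arrays. D10-LP replicates 1, 2 and 4 were above every D10-CN array, while replicates 3 and 5 were within or below their range. At D5 it ran from 6.44 to 6.63 in D5-CN and from 6.37 to 6.65 in D5-LP. *Cidea*, a lipid droplet protein of brown fat, read 9.08, 8.12, 8.27, 9.46 and 8.84 in D10-CN and 10.61, 10.79, 8.54, 10.30 and 7.47 in D10-LP. It followed the same 3 arrays, and its contrast was 0.88 ± 0.65. The adipokine *Adipoq* was at 0.53, the thermogenic uncoupling protein *Ucp1* at 0.77 and the lipase *Lpl* at 0.39. Without D10-LP replicates 1, 2 and 4 the list turned, with 10 of 11 below 0 and a median of −0.25. Those were the highest D10 arrays on this same list, so a fall without them follows from the choice. Only D10-LP replicates 3 and 5 remained in that group. With the adipose list mean as a covariate, limma again called 0 probe sets in the contrast, with 1051 at an unadjusted p under 0.05. These alternatives were chosen after the data were seen, and the part of adipose tissue in the other results was not tested beyond them.

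Urothelium and pelvis markers were above 0 in 10 of 11 cases (median 0.15), and their list mean ran from 6.05 to 7.42 in D5-CN, 6.16 to 7.59 in D5-LP, 6.38 to 7.28 in D10-CN and 6.86 to 7.56 in D10-LP. These ranges overlapped widely. The median was 0.04 without D5-CN replicate 5. Of the 11 urothelium markers, 4 were above 0 without D10-CN replicates 2 and 3 (median −0.09), and 5 were without D10-LP replicates 1, 2 and 4 (median −0.02). The keratins *Krt13* and *Krt15* were at 0.15 and 0.17 and the uroplakin *Upk2* at 0.35 (−0.72 to 1.41). *Actg2*, an actin of visceral smooth muscle, read 5.15, 5.44, 7.88, 5.01 and 8.31 in D5-CN and 7.11, 8.60, 5.70, 5.66 and 5.20 in D5-LP, and 7.20, 5.79, 6.08, 7.38 and 7.23 in D10-CN and 8.79, 9.13, 6.88, 7.81 and 7.31 in D10-LP. Its arrays differed by over 3 within the D5 groups, and its contrast of 1.15 had a standard error of 0.99, so that the interval ran from −0.90 to 3.21. Red blood cell genes had a median of −0.07 (4 of 7 below 0), with the heme synthesis enzyme *Alas2* at −0.21 and the membrane protein *Epb42* at −0.13. Adrenal gland genes had a median of −0.05 (6 of 11 below 0), with the steroidogenic factor *Nr5a1* and the catecholamine enzyme *Pnmt* each at 0.15 and *Dbh* at −0.12. Skeletal muscle genes had a median of 0.04 (8 of 14 above 0), with myoglobin (*Mb*) at −0.15 and the myosins *Myh2* and *Myh3* at 0.10 and −0.09. The 3′ minus 5′ measure averaged 0.54 in D5-CN, 0.55 in D5-LP, 0.57 in D10-CN and 0.59 in D10-LP, a contrast of 0.01, and its arrays ran from 0.40 to 0.73 in D5-CN and from 0.48 to 0.66 in D5-LP.

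The largest contrasts by size were of genes with a wide spread between arrays, and they are named here after their values were seen. Beside *Actg2*, the contrast exceeded 1.0 for *Mfap5*, a microfibril protein (1.19 ± 0.72), for *Ly6al* (1.07 ± 0.35) and for *Rbp7*, a retinol-binding protein (1.00 ± 0.53). On the other side, *Esm1*, secreted by endothelial cells, was at −0.88 ± 0.26 (D5 0.43, D10 −0.45) and the urea transporter *Slc14a1* at −0.80 ± 0.27 (D5 0.76, D10 −0.05), with −0.11 at the other *Slc14a1* probe set. Each had an adjusted p of 0.998 in limma.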

How the data were processed

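Kidney RNA of pups was hybridised to Affymetrix GeneChip rat genome arrays. The authors normalized the arrays and deposited log2 values per probe set, and the names of their per-age tables point to the qFARMS method. Those per-age tables were not used, since their 30 value columns name no sample and their other columns hold the authors' own comparisons. Groups came from the sample labels. Probe sets were named through the platform annotation, and 20826 had 1 symbol, 436 several and 9780 none. For lists and shares over genes, 1 probe set a gene was used, that with the highest mean (14217 genes). Genes ranked by p were given at the probe set that ranked. The contrast was fitted to the 4 groups of 5 arrays in limma 3.58.1 (R 4.3.3; lmFit, contrasts.fit, eBayes), with Benjamini-Hochberg adjustment over 31042 probe sets and a threshold of 0.2. Intervals are 95% intervals. Single genes were also tested by exact 2-sided permutation of diet labels within each age (63504 assignments), whose null is no diet effect at either age and whose smallest possible p is 3.15e-05. The text names the 10 genes with the smallest p in each direction, the genes the study named and the members of each list with the smallest p. Further list members were named after their values were seen. Members, genes and the 36 lists were chosen with earlier results of these data known. The fit was tried on simulated data with independent noise for each probe set. On the arrays 51.9% of the remaining variance lay on 1 component, so the simulation does not check the counts under that dependence. Alternatives covered all 30 arrays, quantile and median scaling, a filter on dim probe sets, variance and weighting choices, covariates, replicate blocks, other probe sets and leaving out arrays. Exact tests were run with numpy 2.4.6 and tables handled with pandas 2.3.3 under Python 3.11.15, and figures were drawn with matplotlib 3.10.9.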

Additional observations from a re-analysis of the deposited data

Results flagged for a closer look

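In 26 of 656 groups of 5 arrays (3.96%), for a named gene, a list mean or a score, 1 array lay apart from the other 4 by more than Dixon's critical value. Chance flags about 1 in 20 groups, or about 33 here, so the number of such arrays is not above that. All values are log2, and each is given against the range of the other 4 arrays of its group. D5-LP replicate 5 had *Egfl7* at 9.13 against 8.92 to 8.98, *Igf2r* at 11.16 against 11.29 to 11.35, *Kap* at 11.79 against 12.35 to 12.44, *Nr3c2* at 8.46 against 8.65 to 8.69, *P2ry14* at 7.96 against 8.39 to 8.50 and the cortex list mean at 10.77 against 11.10 to 11.21. D10-CN replicate 1 had *Nr3c2* at 8.70 against 8.41 to 8.47, *P4ha1* at 9.15 against 9.85 to 10.05, *Rgs5* at 8.96 against 9.40 to 9.55, the hypoxia list mean at 8.77 against 8.92 to 8.96 and the medulla minus cortex score at −1.11 against −0.42 to −0.16. D10-CN replicate 4 had *Alas2* at 8.07 against 8.71 to 8.91, *P2ry14* at 8.78 against 8.49 to 8.55 and *Suv39h2* at 5.51 against 5.11 to 5.21. D5-LP replicate 1 had *Rrp8* at 7.43 against 7.16 to 7.23 and *Suv39h2* at 5.30 against 5.59 to 5.69, and D10-LP replicate 2 had *Bub1* at 8.05 against 7.83 to 7.87 and the inner medulla list mean at 10.61 against 10.80 to 10.87. Single values lay apart on D10-CN replicate 2 (*Igf2r* at 11.59 against 11.45 to 11.47), D10-CN replicate 3 (*Nr4a2* at 6.25 against 5.52 to 5.65), D10-CN replicate 5 (*Fgf8* at 3.44 against 3.23 to 3.29), D10-LP replicate 1 (*Traf3ip1* at 7.77 against 7.93 to 7.96) and D10-LP replicate 4 (*Chrm4* at 3.78 against 4.01 to 4.08). The same held for D5-CN replicate 1 (*Alas2* at 8.06 against 8.35 to 8.42), D5-CN replicate 3 (*Nr4a2* at 4.71 against 5.05 to 5.15) and D5-LP replicate 3 (*Nr1d1* at 5.99 against 5.54 to 5.63). No difference of a diet effect between the ages was past the threshold in the limma test of the contrast itself.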

How the results depend on the processing

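The contrast had 0 probe sets past the threshold under each of the 17 alternatives that changed the arrays, the scaling, the filter or the model. When 1 array was left out it had 0 to 1, and the 1 was an unnamed probe set without D10-CN replicate 5. The number at an unadjusted p under 0.05 ran from 1010 to 1987 when 1 array was left out. It was 639 with dim probe sets left out (fewer were tested), 2875 with the 3′ minus 5′ covariate, 2105 with the medulla minus cortex covariate and 2339 with the endothelium minus proximal tubule covariate. The calls within an age moved more, and the cause was not tested. At D5 they numbered 0 to 81 when 1 array was left out (81 without D5-LP replicate 5, 18 without D5-CN replicate 1), 38 over all 30 arrays, 2 with the spread estimated within each age, 157 with array weights, 84 and 65 with the 3′ minus 5′ and medulla minus cortex covariates, 375 with the endothelium minus proximal tubule covariate and 1 without D10-CN replicates 2 and 3. At D10 they numbered 0 to 7 when 1 array was left out, 8 over all 30 arrays, 38 with the 3′ minus 5′ covariate, 38 with the endothelium minus proximal tubule covariate, and 0 with median centring, dim probe sets left out, an ordinary linear model, the spread within each age, the medulla minus cortex or adipose tissue covariate, or without D10-LP replicates 1, 2 and 4. The contrast of some named genes changed sign, among them *Cidea* and *Adipoq*, which were at 0.88 and 0.53 with all 20 arrays. With array weights the values were 0.0098 (*Gnas*), 0.085 (*Kank3*), 0.0015 (*Tbx3*), −0.012 (*Cidea*), −0.079 (*Krt15*) and −0.12 (*Upk2*), and with the 3′ minus 5′ covariate *Il1b* was at −0.0034. The following alternatives were chosen after the data were seen. With the endothelium minus proximal tubule covariate the values were 0.035 (*Gnas*), 0.071 (*Kank3*), 0.096 (*Tbx3*) and −0.0046 (*Kap*), and with the adipose tissue covariate 0.0085 (*Gnas*), 0.051 (*Kank3*) and 0.053 (*Tbx3*). Without D10-LP replicates 1, 2 and 4 they were 0.024 (*Kank3*), 0.0094 (*Tbx3*), −0.098 (*Il1b*), −0.035 (*Lpl*), −0.25 (*Adipoq*) and −0.66 (*Cidea*). Without D10-CN replicates 2 and 3 they were 0.059 (*Gnas*), 0.16 (*Kank3*), 0.16 (*Tbx3*), 0.012 (*Tagln*), −0.048 (*Mme*), −0.060 (*Kap*), −0.0074 (*Cox6c*), −0.022 (*Cox6a1*) and −0.090 (*Krt15*). List medians without those 2 arrays were 0.16 (nephron progenitor), −0.20 (intercalated cell) and 0.016 (cytokines). Leaving out 1 array gave −0.12 to 0.11 for *Il1b*, −0.077 to 0.014 for *Gnas*, −0.16 to 0.0059 for *Ptger1*, −0.17 to 0.090 for *Tbx3* and −0.12 to 0.058 for *Kank3*. The mean over both *Ptger1* probe sets was 0.025. Other probe sets of the opposite sign were at 0.052 for *Sox17*, 0.010 for *Proser2*, 0.13 for *Ptger1*, −0.14 for *Slc14a2*, 0.028 for *Wnt11*, 0.059 for *Dkk3*, 0.039, 0.033 and 0.014 for *Wnk1*, 0.11 for *Aqp4*, −0.092 for *Ptgs1*, 0.028 for *Cebpd* and −0.091 for *Nr5a1*. Same-numbered CN and LP arrays had deviations correlated at −0.705 to 0.649, over 0.1 in 3 of 10 pairs, so the numbers were not taken to pair samples. With the replicate number as a block, the contrast had 0 calls, with 1133 (block within each age) and 1186 (block shared by both ages) at an unadjusted p under 0.05, and 3 of 20 arrays correlated best with their own number. With 5 arrays a group, a change of the diet effect smaller than about 0.236 lay within the interval of a typical probe set. That interval is not adjusted for the number of probe sets, so the threshold asked for a larger change.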
